A study of Mus musculus with 10 samples.

Results

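The hepatic stellate cell genes Lrat, Reln, Des, Dcn, Lum, Vim and Ngfr, and Hgf, a growth factor that stellate cells secrete, were followed in mouse liver after VEGF gene transfer. They were listed by name from what is known of these cells, with earlier results of these data known. They are 8 of the 24011 rows with a gene symbol in the deposited table. RNA-Seq was made from the livers of 10 adult male C57BL/6 mice. In the AdVEGF group, 5 mice had received, through the tail vein, an adenovirus that expresses VEGF-A from the CMV promoter, and in the AdCMV group 5 mice had received the vector with that promoter and no transgene. All livers were taken on day 6. Both groups carry the virus itself, so its own effect is in both, and the CMV promoter is not limited to 1 cell type. No genes were deleted in either group.

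Hepatic stellate cells lie between the hepatocytes and the sinusoidal endothelium. In the quiescent state they store vitamin A as retinyl esters in lipid droplets, wrap the sinusoids as the pericytes of the liver, and release HGF, which acts on hepatocytes through the receptor Met. On activation they lose the vitamin A droplets, turn into contractile myofibroblasts and lay down collagen and other matrix. Of the genes followed here, Vim, Dcn and Lum are also used by fibroblasts, Vim by endothelial and immune cells, and Des by smooth muscle.

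Between 5596560 and 13494000 mapped tags were recovered per library. RPKM corrects the reads of a transcript for its length and is a share of the library. Summed over the rows with a gene symbol, the reads exceeded the mapped tags of each library. The genes of the major urinary proteins (Mup) took 18.0% to 50.5% of these summed reads with AdCMV and 7.84% to 28.6% with AdVEGF. The 8 genes and the counts of calls are therefore given on the deposited RPKM and after median-ratio scaling, which sets the median gene equal between libraries and lowered the log2 fold change of the median gene from 0.38 to -0.0044. Other genes are given on the deposited RPKM unless scaling is named, and those described as having risen or fallen were called on both scales except where stated. A gene was called when its limma adjusted p was under 0.05 and its change between the groups, on the log2(RPKM + 0.1) scale, was over 1 or under -1. Nothing in the labels ties the mice to litters or batches beyond their group.

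All 8 genes passed the filter on low values, a group mean above 0.5 RPKM in either group, and 6 of them rose in the AdVEGF group: Lrat, Reln, Des, Lum, Vim and Ngfr. None was called lower. Of the 13933 genes tested, 13.0% were called higher and 1.54% lower. The same 6 genes were called after median-ratio scaling, where 7.77% of all genes were called higher and 3.14% lower. In Lrat, Des, Lum, Vim and Ngfr, 5 of the 8, every AdVEGF mouse lay above every AdCMV mouse, as in 14.3% of all genes tested, and in 0 of the 8 did every AdVEGF mouse lie below (1.29% of all genes). Their median log2 fold change was 1.74, or 1.35 after scaling. The calls of Lrat, Reln and Lum were lost when limma's treat asked for a change beyond 1 on the log2 scale in place of 0 (adjusted p = 0.72, 0.702 and 0.104). Those of Des, Vim and Ngfr were kept (limma treat adjusted p = 0.0432, 0.00913 and 0.000374), that of Des only just under 0.05. Treat was run on the deposited RPKM only. In whole liver RNA, more cells of a type and more RNA per cell cannot be told apart.

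The bases before the start sites of 3 of the rising genes are shown for orientation, those of the vitamin A enzyme, of the secreted ligand and of the filament gene of the stellate cell. Each is the stretch of 250 bases directly upstream of the RefSeq start in GRCm38.p6, written 5′ to 3′ on the strand of the gene. Bases just after each start were sought in reference transcripts of the gene, and were found for Lrat and Reln but not for Des. Capitals mark the E-box CANNTG, to which bHLH factors such as Tcf21 and Hand2 bind as a class, and the GC box GGGCGG of the Sp family, which reads CCGCCC on the other strand. Lrat lies at chr3:82903975-82904224 on the minus strand, Reln at chr5:22344706-22344955 on the minus strand and Des at chr1:75360042-75360291 on the plus strand.
Lrat: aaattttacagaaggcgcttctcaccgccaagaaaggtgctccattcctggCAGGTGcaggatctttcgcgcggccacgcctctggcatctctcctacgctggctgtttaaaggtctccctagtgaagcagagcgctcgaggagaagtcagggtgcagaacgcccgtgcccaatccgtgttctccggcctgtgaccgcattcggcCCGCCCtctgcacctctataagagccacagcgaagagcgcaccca
Reln: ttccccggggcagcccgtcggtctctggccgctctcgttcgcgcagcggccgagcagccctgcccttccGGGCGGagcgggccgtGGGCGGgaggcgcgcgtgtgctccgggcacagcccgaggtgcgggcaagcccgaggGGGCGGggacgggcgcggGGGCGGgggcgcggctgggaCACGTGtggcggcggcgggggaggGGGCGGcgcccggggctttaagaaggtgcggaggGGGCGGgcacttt
Des: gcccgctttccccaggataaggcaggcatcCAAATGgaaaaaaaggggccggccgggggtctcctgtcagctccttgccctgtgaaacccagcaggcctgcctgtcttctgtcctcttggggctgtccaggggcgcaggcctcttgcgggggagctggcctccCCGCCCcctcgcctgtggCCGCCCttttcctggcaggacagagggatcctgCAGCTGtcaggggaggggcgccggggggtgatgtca

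The 3 windows share the E-box, with 1 in Lrat, 1 in Reln and 2 in Des, and the GC box, with 1 in Lrat, 6 in Reln and 2 in Des. Among the windows not shown, Ngfr held 2 E-boxes and 4 GC boxes, and Vim, which also rose, held none of either. The 2 windows of Hgf held no GC box, and 1 of them held 2 E-boxes. The E-box is found in 66.2% of 32851 promoter windows of this length and the GC box in 32.7%, both strands searched, and no 2 matches overlapped. The TATA box TATAAA stands in 12.4% of all windows and in none of the 3 shown, but 32 bases before the start of Vim. The AP-1 site TGANTCA and the nuclear receptor half-site AGGTCA, searched on both strands, were in none of the windows of the 6 genes with an entry, which are Lrat, Reln, Des, Vim, Ngfr and Hgf. The GC content was 80.0% in Reln, 70.4% in Ngfr, 67.2% in Des, 59.2% in Lrat, 58.4% in Vim and 50.8% and 51.2% for the 2 listed starts of Hgf, against a median of 52.4%. These are descriptions of letters and show no binding.

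Lrat encodes lecithin retinol acyltransferase, the enzyme that esterifies retinol for storage and the most specific of these genes for the stellate cell in liver. Its row spans bases 82696504 to 82707896 of chromosome 3 in mm9, the build named with the samples, with 5345 bases of transcript. In the 5 AdCMV mice its RPKM was 2.48, 3.22, 2.71, 1.61 and 3.57, and in the 5 AdVEGF mice 13.0, 10.6, 6.55, 7.15 and 4.03. The lowest AdVEGF mouse, number 5, lay just above the highest AdCMV mouse, and mouse 1 was the highest, so that the AdVEGF mice were spread widely but did not overlap the AdCMV mice. The means were 8.26 ± 3.52 (SD, n = 5) and 2.72 ± 0.754 (SD, n = 5), and the log2 fold change was 1.51 (SE 0.30, 95% interval 0.88 to 2.13, limma adjusted p = 0.00135). After median-ratio scaling it was 1.11 (limma adjusted p = 0.00902), close to the threshold of 1, and AdVEGF mouse 5, at 4.04, was hardly above the highest AdCMV mouse, at 4.02. AdVEGF mouse 5 also had the highest Mup share of its group, 28.6%, and AdCMV mouse 3, the highest of its group for Vim, Lum and Hgf, had the lowest, 18.0%; the part of this in the values was not tested. The row of Rbm46os overlaps Lrat and held at most 1 read in any mouse.

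Of the 24 listed genes of retinoid storage and metabolism, 19 passed the filter, 4 were called higher, beside 13.0% of all genes, and 1 lower. After scaling 3 were higher, beside 7.77% of all genes, and 1 lower. Their median log2 fold change was 0.30, below the 0.38 of all genes. Lrat is counted among those called higher, and without it 3 of 18 tested were called higher, 2 after scaling. The retinoic acid receptors Rarg and Rarb rose by 1.63 and 1.11 on the log2 scale, and Rarb was not called after scaling (0.72). Aldh1a1, a retinaldehyde dehydrogenase that hepatocytes express, fell by 1.33 on the log2 scale and by 1.74 after scaling, from 440 ± 99.6 (SD, n = 5) to 173 ± 26.7 (SD, n = 5) RPKM (limma adjusted p = 0.00015).

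Ngfr encodes the low-affinity neurotrophin receptor, which binds the growth factors of the neurotrophin family. It is on chromosome 11 of mm9, bases 95430140 to 95449012. Its RPKM was 1.91, 2.10, 2.84, 1.44 and 3.22 in the AdCMV mice and 12.4, 14.8, 11.1, 12.6 and 11.5 in the AdVEGF mice. The AdVEGF mice lay close together and far above the AdCMV mice, and mouse 5, the lowest for Lrat, was not set apart here. With means of 12.5 ± 1.47 (SD, n = 5) and 2.30 ± 0.722 (SD, n = 5), Ngfr had the largest rise of the 8 genes, with a ratio of means of 5.42 and on the log2 scale 2.43 ± 0.23 (SE, 95% interval 1.96 to 2.91, limma adjusted p = 7.71e-07), or 2.04 after scaling. Only 2.18% of all genes tested had a larger log2 fold change. Its coefficient of variation among the AdVEGF mice, 11.8%, was the lowest of the 8 genes, which ran up to 42.7% for Lrat.

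Among 17 listed neurotrophins, receptors and partners, 13 passed the filter and 4 were called higher, before and after scaling, and none lower. The shares of all genes called higher were 13.0% and 7.77%. Ngfr is counted among the 4, and without it 3 of 12 tested were called, before and after scaling. Ntf3 was called on few reads, 0 to 4 with AdCMV and 3 to 10 with AdVEGF. Ngfrap1, listed as a partner of the receptor, rose by 1.49. Not called were Bdnf (0.80, or 0.44 after scaling, limma adjusted p = 0.0831 and 0.27) and Sort1, the coreceptor sortilin (0.66, or 0.28 after scaling, limma adjusted p = 0.115 and 0.417). The receptor kinase gene Ntrk3 stayed below the filter, with at most 8 reads in a mouse. Schwann cells, which also express Ngfr, had 7 listed markers, of which 2 passed the filter and none was called; Sox10 was at 0 RPKM in the AdCMV mice and at most at 0.055 in the AdVEGF mice.

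Reln encodes reelin, a large secreted glycoprotein best known from brain layering and made in liver by stellate cells. Its row is on chromosome 5 of mm9, bases 21390272 to 21850523, with 11632 bases of transcript. The AdCMV mice had 1.91, 1.52, 2.22, 1.60 and 4.91 RPKM and the AdVEGF mice 10.8, 8.24, 6.67, 3.26 and 7.22. AdCMV mouse 5 stood above the rest of its group and above AdVEGF mouse 4, so the groups overlapped by these 2 mice. Reln rose from 2.43 ± 1.41 (SD, n = 5) to 7.24 ± 2.74 (SD, n = 5). The log2 fold change was 1.58 ± 0.33 (SE, 95% interval 0.87 to 2.28, limma adjusted p = 0.00246), and 1.19 after scaling (limma adjusted p = 0.0201).

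The reelin receptors were hardly detected. Per mouse, Vldlr was read 4 to 14 times with AdCMV and 1 to 12 times with AdVEGF, Lrp8 9 to 18 and 3 to 29 times, and both stayed below the filter, as did the adaptor Dab1. Of 11 listed reelin pathway genes 8 were tested and 5 called higher, beside 13.0% of all genes. They were Fyn (2.16), Dab2 (1.85), Reln, Rapgef1 (1.09) and Src (1.03). Fyn and Src are kinases used by many pathways. Rapgef1 and Src were not called after scaling, which left 3 genes, beside 7.77% of all genes. Without AdCMV mouse 2 or without AdCMV mouse 4, 3 were also called.

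Hgf encodes hepatocyte growth factor, secreted as an inactive precursor. It is on chromosome 5 of mm9, bases 16059719 to 16125257. Its RPKM was 3.31, 2.40, 6.09, 2.18 and 4.30 in the AdCMV mice and 8.41, 8.10, 7.08, 4.03 and 6.45 in the AdVEGF mice. Only AdVEGF mouse 4 lay inside the AdCMV range, below AdCMV mice 3 and 5. The means were 6.81 ± 1.74 (SD, n = 5) and 3.66 ± 1.60 (SD, n = 5). The log2 fold change of 0.94 (SE 0.28, 95% interval 0.34 to 1.53, limma adjusted p = 0.0247) stayed under the threshold of 1, and after scaling it was 0.54 (95% interval 0.081 to 1.01, limma adjusted p = 0.0858). Hgf was called without AdCMV mouse 3 (1.14), without AdCMV mouse 5 (1.02) or without AdVEGF mouse 4 (1.11). Among all genes tested, 16.3% had a larger log2 fold change than Hgf.

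Of 18 listed genes of HGF activation and reception, 14 were tested and 3 called higher, beside 13.0% of all genes, or 1 after scaling, beside 7.77%, with none lower; without AdCMV mouse 3, or without AdCMV mouse 5, 5 were called. The plasminogen activators Plat and Plau, among the proteases able to cleave the precursor, had log2 fold changes of 3.25 (limma adjusted p = 1.42e-06) and 1.00 (limma adjusted p = 0.0195), and the Met adaptor Gab1 one of 1.25; only Plat was called after scaling. Met itself had 6.87 ± 0.768 (SD, n = 5) RPKM in the AdVEGF mice and 7.93 ± 2.64 (SD, n = 5) in the AdCMV mice, which is -0.15 on the log2 scale (limma adjusted p = 0.652). After scaling Met had -0.54 (limma adjusted p = 0.0191), lower in the AdVEGF group but short of the threshold of -1. Neither Hgfac, the liver activator of HGF (0.09, or -0.32 after scaling, limma adjusted p = 0.737 and 0.291), nor the inhibitor Spint2 (0.62, or 0.22 after scaling, limma adjusted p = 0.0455 and 0.308) was called, and the inhibitor Spint1 stayed below the filter with at most 10 reads.

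**Figure D1:**
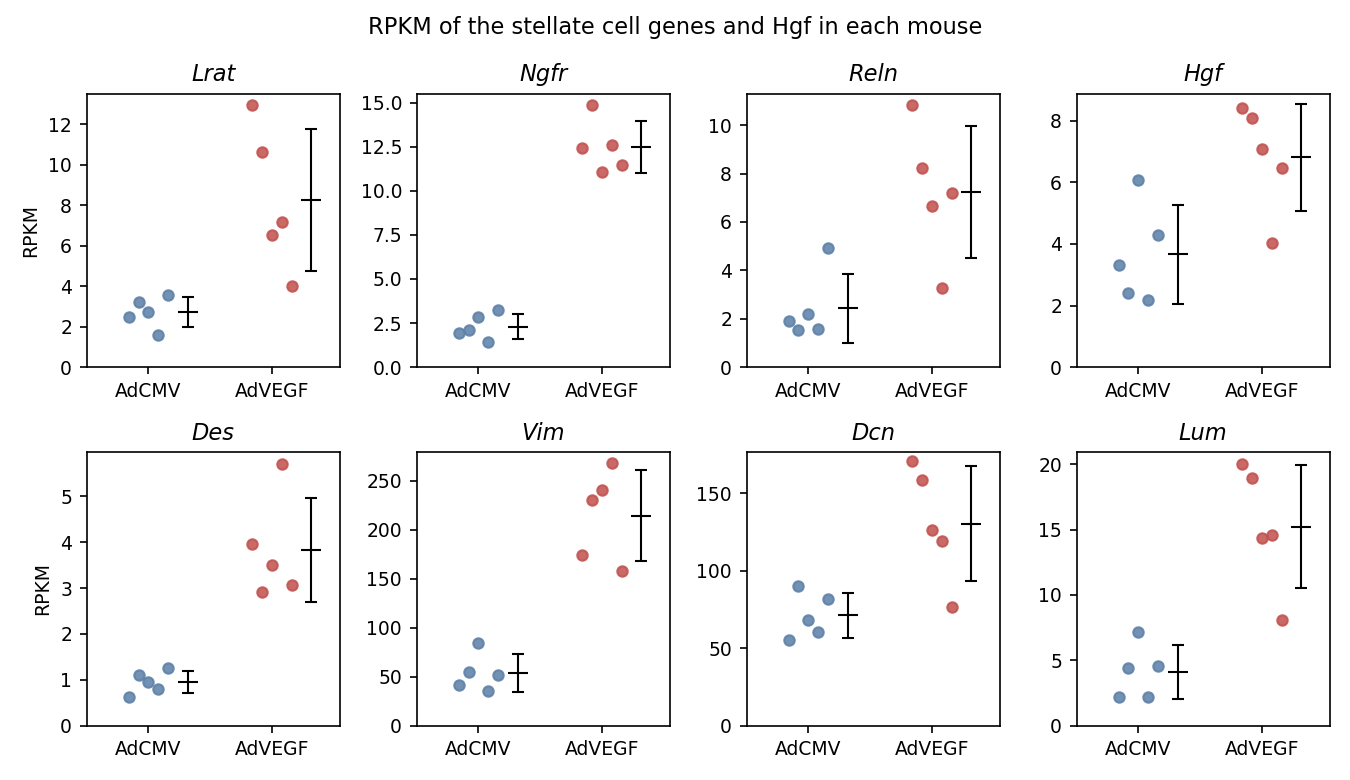
RPKM (vertical axis, linear from 0, its range set for each gene) of the 8 genes in each mouse (points; AdCMV blue, AdVEGF red, mice 1 to 5 from left to right) with the mean and SD beside them (black, n = 5). The groups are apart for Lrat, Ngfr, Des, Vim and Lum and overlap for Reln, Hgf and Dcn, and the AdVEGF points of Ngfr are the most closely packed, between 11.1 and 14.8.

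Des encodes desmin, the muscle type intermediate filament protein that marks stellate cells in rodents, and is on chromosome 1 of mm9, bases 75356867 to 75365154. It was the least abundant of the 8 genes, with 0.633, 1.12, 0.956, 0.799 and 1.25 RPKM in the AdCMV mice and 3.96, 2.91, 3.51, 5.72 and 3.07 in the AdVEGF mice. The groups were well apart, and AdVEGF mouse 4 was the highest. Des rose from 0.951 ± 0.246 (SD, n = 5) to 3.83 ± 1.13 (SD, n = 5). The log2 fold change was 1.89 ± 0.26 (SE, 95% interval 1.34 to 2.45, limma adjusted p = 4.43e-05), and 1.52 after scaling. These values rest on 14 to 46 reads per AdCMV mouse and 60 to 142 per AdVEGF mouse, the fewest of the 8 genes. The row of Gm15179 overlaps Des and held at most 1 read in any mouse.

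Vim encodes vimentin, the intermediate filament protein of mesenchymal cells, on chromosome 2 of mm9, bases 13495938 to 13504453. It had 41.1, 54.8, 84.9, 35.0 and 51.6 RPKM in the AdCMV mice and 174, 231, 241, 268 and 158 in the AdVEGF mice. No AdVEGF mouse came near the highest AdCMV mouse, number 3. Vim rose from 53.5 ± 19.3 (SD, n = 5) to 214 ± 46.3 (SD, n = 5). The log2 fold change was 2.04 ± 0.24 (SE, 95% interval 1.53 to 2.55, limma adjusted p = 8.59e-06), and 1.64 after scaling. Of the 11 listed intermediate filament genes and partners, 7 were tested and 5 called higher, 4 after scaling, beside 13.0% and 7.77% of all genes. Vim and Des are counted here, and without them 3 of 5 tested were called, 2 after scaling. Nes, which encodes nestin, rose by 3.26 and Fhl1 by 3.06 on the log2 scale. The chaperone gene Cryab rose by 1.25 and was not called after scaling. Gfap, used as a stellate cell marker in rodents at the protein level, was read 0 to 2 times per AdCMV mouse and 0 to 5 times per AdVEGF mouse, and a difference was not detectable at this depth.

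Dcn and Lum encode decorin and lumican, small leucine-rich proteoglycans that bind collagen fibrils, and decorin also binds TGF-beta. They are neighbours on chromosome 10 of mm9, Dcn at bases 96944984 to 96980796 and Lum at bases 97028135 to 97035337, with 47338 bases between them. In the AdCMV mice Dcn had 55.1, 90.0, 68.4, 60.6 and 81.5 RPKM, and in the AdVEGF mice 171, 159, 126, 119 and 76.5. The AdVEGF mouse 5 lay below AdCMV mice 2 and 5, and the other AdVEGF mice were above all AdCMV mice. The means were 130 ± 37.0 (SD, n = 5) and 71.1 ± 14.5 (SD, n = 5). The log2 fold change of Dcn, 0.84 (SE 0.23, 95% interval 0.35 to 1.33, limma adjusted p = 0.0147), was the smallest of the 8 and under the threshold, and after scaling it was 0.44 with an interval that included 0 (95% interval -0.031 to 0.91, limma adjusted p = 0.169). Without AdVEGF mouse 5 Dcn was called, with 1.02.

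Lum had 2.20, 4.44, 7.17, 2.20 and 4.53 RPKM in the AdCMV mice and 20.04, 18.9, 14.3, 14.6 and 8.11 in the AdVEGF mice. AdCMV mouse 3 was close to AdVEGF mouse 5, and the groups did not overlap. Lum rose from 4.11 ± 2.06 (SD, n = 5) to 15.2 ± 4.71 (SD, n = 5). The log2 fold change was 1.94 ± 0.32 (SE, 95% interval 1.26 to 2.61, limma adjusted p = 0.000277), and 1.54 after scaling (limma adjusted p = 0.00054). Relative to its neighbour, Lum stood at 3.63% to 10.5% of the Dcn level with AdCMV and at 10.6% to 12.3% with AdVEGF, a range that was narrower and just above that of the AdCMV mice. The mean ratio was 5.72% ± 2.77% (SD, n = 5) with AdCMV and 11.6% ± 0.641% (SD, n = 5) with AdVEGF. The genes Kera and Epyc, of the same family, were at 0 reads in every mouse. Of the 16 listed small leucine-rich proteoglycans 9 were tested and 3 were called higher, before and after scaling, beside 13.0% and 7.77% of all genes. They were Prelp (2.27), Bgn, which encodes biglycan (2.01), and Lum.

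**Figure D2:**
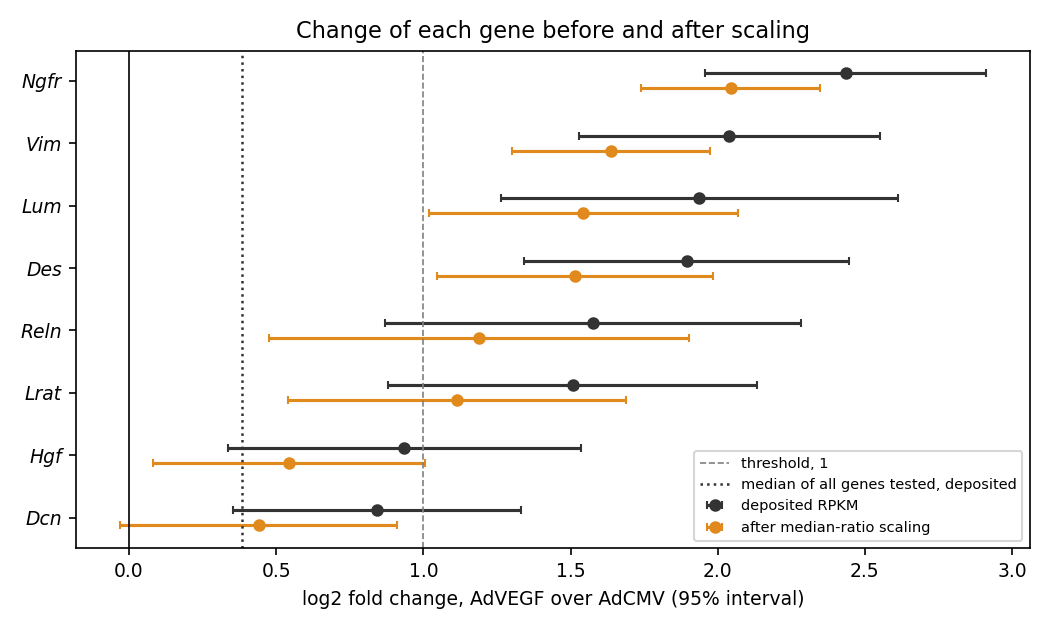
Log2 fold change of AdVEGF over AdCMV for each gene with its 95% interval, on the deposited RPKM (black) and after median-ratio scaling (orange), with the threshold of 1 (dashed) and the median of all genes tested on the deposited RPKM (dotted, 0.38). Ngfr is at the top with 2.43 and Dcn at the bottom with 0.84, and scaling moves every gene to the left while the 6 called genes stay above 1.

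The order of the levels differed between the groups at the top. In the AdCMV mice the means ran from Dcn (71.1 RPKM) and Vim (53.5) to Lum (4.11), Hgf (3.66), Lrat (2.72), Reln (2.43), Ngfr (2.30) and Des (0.951). In the AdVEGF mice they ran from Vim (214 RPKM) and Dcn (130) to Lum (15.2), Ngfr (12.5), Lrat (8.26), Reln (7.24), Hgf (6.81) and Des (3.83). Dcn was above Vim in 4 of 5 AdCMV mice and below it in 5 of 5 AdVEGF mice, with Vim at 0.578 to 1.24 times the Dcn level in the former and at 1.02 to 2.25 times in the latter. Hgf thus moved from above Lrat, Reln and Ngfr to below them, but only some neighbours in these orders were apart. The ranges of Vim and Lum and of Ngfr and Des did not overlap in the AdCMV mice, and those of Dcn and Lum did not in the AdVEGF mice; all other neighbours overlapped.

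Whether the genes changed by the same factor was asked within each library, where the scaling between libraries all but cancels, by the log2 ratio of each gene to Lrat with 0.1 RPKM added to both. The difference between the groups was tested for 7 ratios with a two-sided exact permutation test over the 10 mice, whose smallest possible p is 0.00794, and the p are unadjusted. All 7 ratios share Lrat and are not independent of each other. The ratio of Dcn to Lrat was 0.66 lower on the log2 scale in the AdVEGF group (difference -0.66, exact p = 0.00794), and all 5 AdVEGF mice lay below all AdCMV mice. That of Ngfr to Lrat was 0.93 higher (exact p = 0.0159), with 4 of 5 AdVEGF mice above all AdCMV mice; AdVEGF mouse 1, with the highest Lrat, was the exception.

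For the other 5 genes the groups overlapped, and the exact test on 5 mice a group neither showed nor excluded a difference. The difference was 0.53 for Vim (exact p = 0.159), 0.43 for Lum (exact p = 0.143) and 0.39 for Des (exact p = 0.31). For Reln it was 0.07 (exact p = 0.849) and for Hgf -0.57 (exact p = 0.175). The p of Lum fell to 0.0159 without AdCMV mouse 3 (difference 0.65), and that of Vim to 0.0317 without AdVEGF mouse 1 (0.79). The ratio of Hgf to Lrat was spread over more than 1 log2 unit in each group, from -0.41 to 1.14 with AdCMV and from -0.81 to 0.67 with AdVEGF.

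**Figure D3:**
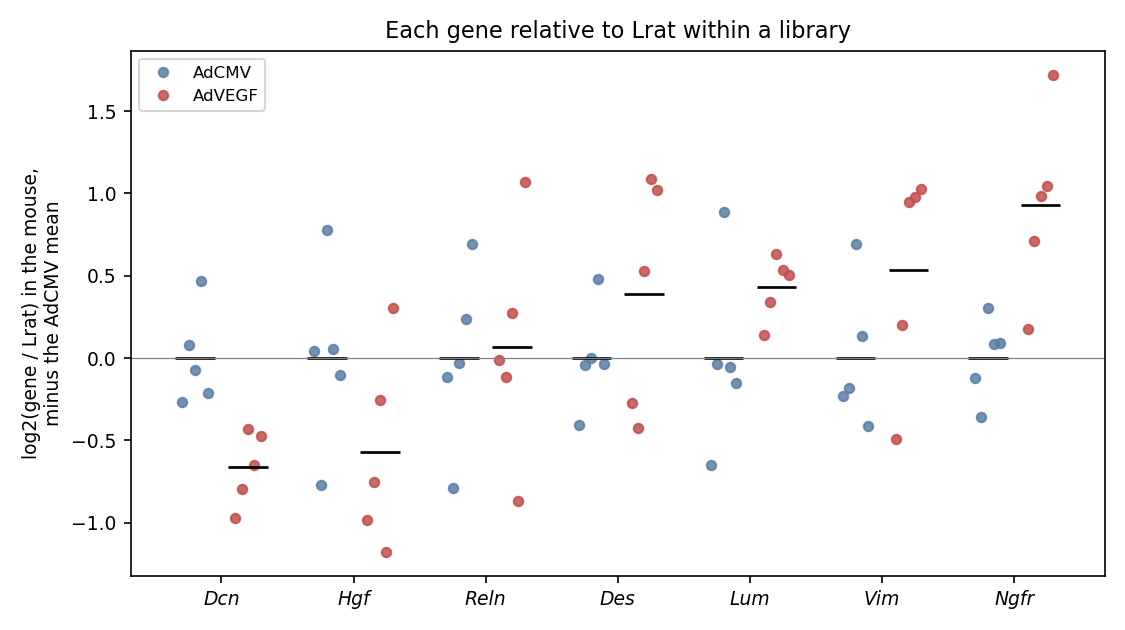
Log2 ratio of each gene to Lrat in the same library, with the AdCMV mean of each gene set to 0 (points are mice; AdCMV blue, AdVEGF red; black lines are group means, n = 5). The AdVEGF points of Dcn all lie below the AdCMV points, 4 of 5 of Ngfr lie above them, and the groups overlap for the other 5 genes.

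Of 25 further markers of stellate cells, 23 passed the filter and 16 were called higher and none lower, with a median log2 fold change of 1.35. After scaling 11 were higher and none lower, with a median of 0.96. Among all genes 13.0% were called higher, or 7.77% after scaling. Nes rose by 3.26, the transcription factor gene Tcf21 by 2.57, Prelp by 2.27 and the parathyroid hormone receptor gene Pth1r by 2.25 on the log2 scale. The PDGF receptor gene Pdgfrb rose by 2.19, from 1.54 ± 0.617 (SD, n = 5) to 6.98 ± 1.24 (SD, n = 5) RPKM. Steap4 and Tmem56 were not called. On the log2 scale Steap4 had -0.43 before scaling and -0.83 after it (limma adjusted p = 0.194 and 0.00353). Tmem56 had 0.06, and -0.35 after scaling (limma adjusted p = 0.863 and 0.112). Hhip stayed below the filter and was not tested, and every AdVEGF mouse lay below every AdCMV mouse. It had 0.039 to 0.158 RPKM with AdVEGF, on 2 to 10 reads, and 0.198 to 0.422 with AdCMV, on 13 to 29 reads.

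Genes of activated stellate cells and myofibroblasts had a larger median change. Of 20 listed, 18 were tested and 16 were called higher, 15 after scaling, and none lower, beside 13.0% and 7.77% of all genes called higher. Their median was 2.84 on the log2 scale or 2.49 after scaling. Acta2, smooth muscle actin, rose by 3.91 (limma adjusted p = 6.65e-07), from 1.80 ± 0.896 (SD, n = 5) to 29.3 ± 16.4 (SD, n = 5) RPKM, and Col1a1, a chain of collagen I, by 3.51 (limma adjusted p = 4.41e-06), from 2.52 ± 1.33 (SD, n = 5) to 28.2 ± 14.3 (SD, n = 5). Spp1 rose by 3.91, Postn by 3.56 and Sparc by 3.34 on the log2 scale. Of the 2 not called, Fn1 had 0.82 and Timp1 1.17 (limma adjusted p = 0.033 and 0.0537), or 0.42 and 0.78 after scaling. Timp1 was spread widely over the AdVEGF mice, from 2.78 to 19.3 RPKM.

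Markers of other cells that use the same genes were set beside these. The shares of all genes called higher were again 13.0%, and 7.77% after scaling. Of 10 vascular smooth muscle genes, Des among them, 8 were tested and 7 called higher, 6 after scaling; their summed level ran from 7.64 to 14.2 RPKM with AdCMV and from 29.8 to 64.4 with AdVEGF, with Actg2 (3.59) and Myh11 (3.23) in front. Of 14 portal fibroblast and mesothelial genes, 8 were tested and 1, Eln (1.16), was called higher, none after scaling, and the sums overlapped, 11.3 to 25.4 RPKM with AdCMV and 13.7 to 22.4 with AdVEGF. Of 15 endothelial markers, 14 were tested and 13 called higher, before and after scaling; their sums ran from 52.2 to 99.8 RPKM with AdCMV and from 344 to 423 with AdVEGF. No marker of these 3 lists was at 0 in every mouse. The part of these cells in the values of Vim, Des, Dcn and Lum was not tested. Nor was their part in the values of the activated stellate cell and myofibroblast genes.

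Further cell types were checked in the same way, the sums again for AdCMV and then AdVEGF on the deposited RPKM. Beside them stand 13.0% of all genes called higher and 1.54% lower, or 7.77% and 3.14% after scaling. For 13 hepatocyte markers, all tested, 4 were called higher and 1 after scaling, and their sums were 23073 to 30364 RPKM against 42509 to 58032. Alb, the most abundant of them, had 1.14 on the log2 scale, or 0.74 after scaling (limma adjusted p = 0.00768 and 0.17). Of 11 Kupffer cell and macrophage markers 3 were called higher, 2 after scaling, and 5 without AdCMV mouse 5; their sums were 145 to 315 RPKM against 306 to 473. Of 6 T and NK cell markers tested 4 were called lower, 5 after scaling, and 2 without any 1 of AdCMV mice 1 and 3 or AdVEGF mice 4 and 5. Of 7 neutrophil markers 4 were higher, 3 after scaling, and 2 without AdVEGF mouse 2 or 4; of 4 B cell markers 3 were higher, 1 after scaling; and of 5 cholangiocyte markers Spp1 was the 1 called, with 2 called without AdVEGF mouse 1.

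**Figure D4:**
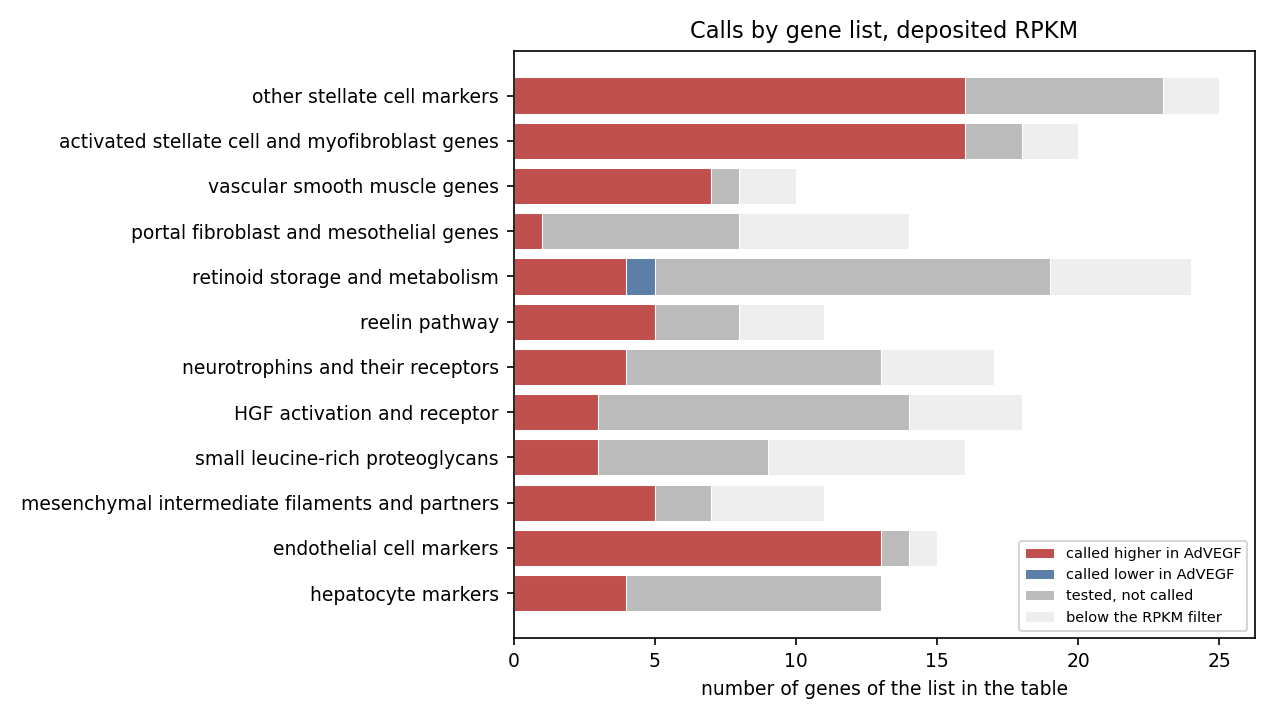
Number of genes of 12 lists (horizontal axis) that were called higher (red) or lower (blue) in the AdVEGF group, tested and not called (grey) or below the RPKM filter (light grey), on the deposited RPKM; some genes stand in more than 1 list. Calls fill most of the bars of the stellate cell, myofibroblast, smooth muscle and endothelial lists, 16 of 23, 16 of 18, 7 of 8 and 13 of 14 tested, beside 13.0% of all genes called higher. In the retinoid, HGF and portal fibroblast lists 4 of 19, 3 of 14 and 1 of 8 tested are called higher, and the 1 lower call is Aldh1a1.

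The genes with the most similar pattern over the 10 mice were sought among 12267 genes with a mean of at least 1 RPKM, by the root mean square difference of their scaled and centred log2 values. Ngfr had the closest partners, Pth1r (0.158), Lhfp (0.17) and Cdr2l (0.175), on its own SD of 1.09 across the mice. For Vim they were Tagln2, Pmepa1 and Serpinb6a (0.165 to 0.185), for Lum Slc25a4, Kcnj8 and Ccl24 (0.197 to 0.238), and for Des Rilpl1, Pear1 and Plvap (0.215 to 0.227). Lrat was nearest to St3gal6, Hacd4 and Cdc25c (0.261 to 0.296) and Reln to Itpkb, Tgfbr3 and Hist1h2ac (0.244 to 0.294), both less closely. Dcn was nearest to Xpc, Tyrobp and Ifitm1 (0.216 to 0.218) and Hgf to Mb21d2, Kcna2 and Slc36a4 (0.159 to 0.182), at smaller SDs of 0.43 and 0.45. Among the 8 genes, Vim and Ngfr differed least (0.357) and Dcn and Ngfr most (0.876), and Lrat was closest to Dcn (0.414). A small difference is a description of these 10 libraries and carries no test.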

How the data were processed

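Ribosome-depleted RNA of 10 mouse livers was sequenced. According to the submitters' processing notes, the authors used TopHat, HOMER and the build mm9, and per the methods they set all libraries to 1 common total of uniquely mapped tags; the strand setting of the counting is not given in the sources used here. They deposited RPKM values per RefSeq transcript and mouse, beside their own fold changes and FDR for the groups, which were not used. From the steps of the RPKM values, whole reads were recovered for at least 99.9% of the values of each library. A value counted as whole within 0.02 reads, or within its rounding where larger. The 5 rows without a gene symbol, at most 0.00534% of the reads summed over the rows of a library, were left out. A value of 3 reads on 1 kb equals 0.222 to 0.536 RPKM, and depth limits cover counting error only.

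Rows whose mean exceeded 0.5 RPKM in either group were compared by limma (version 3.58.1, R 4.3.3; lmFit, eBayes with a trend) on log2(RPKM + 0.1), with Benjamini-Hochberg adjustment over all genes tested. This scale understates the change of low genes. Exact permutation tests on ratios ran in Python 3.11.15. The alternatives were 2 scalings between libraries, other pseudocounts and filters, treat, voom on the recovered reads, 1 row per symbol, blocking on the replicate number, and omitting mice 1 at a time. The 8 genes and the 18 further lists were chosen with earlier results of these data known, so their counts are no independent support. Named from the lists were called genes with the largest changes, at most 5 a list, and binding partners of the 8 genes; those not called were added as examples after their values were seen. Steps were tested on simulated data. Promoter windows came from RefSeq, GRCm38.p6, with an entry for 6 of the 8 genes. Some members of the lists are counted but not reported here by name.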

Additional observations from a re-analysis of the deposited data

Results flagged for a closer look

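Within each group of 5 mice, the highest or lowest mouse was set against the others for 19 genes named in the text, 38 groups in all, and 3 of them held a mouse far from the rest; chance gives about 1 in 20. Reln in AdCMV mouse 5 was at 4.91 RPKM, with the next mouse of the group at 2.22. Bdnf in AdVEGF mouse 2 was at 3.07 RPKM, with the next at 1.51. Bgn in AdVEGF mouse 4 was at 76.1 RPKM, with the next at 56.2. None of these mice stood apart in the same way for another of the 19 genes. Other genes named in the text were not checked in this way.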

How the results depend on the processing

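Each mouse is 1 animal by the labels, and p-values rest on 5 mice a group. Of all genes, 1808 were called higher and 214 lower; with median-ratio scaling 1082 and 438, with upper quartile scaling 1125 and 393, with treat 503 and 36, and with voom on recovered reads and median-ratio scaling 1135 and 477. Voom on the recovered reads alone called 1993 and 215. With a pseudocount of 1, 954 were higher. The share of higher calls fell from 89.4% to 71.2% with median-ratio scaling. Leaving out 1 mouse gave 1425 to 2357 higher and 178 to 225 lower.

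Of the 8 stellate cell genes and Hgf, 6 were called under each of 11 alternatives other than leaving out a mouse, and 3 with treat; leaving out 1 mouse gave 6 to 7. No log2 fold change of the 8 genes changed sign under any alternative run. It ran from 1.11 to 1.73 for Lrat, 1.19 to 1.86 for Reln, 1.29 to 2.00 for Des, 0.44 to 1.02 for Dcn, 1.5 to 2.17 for Lum, 1.64 to 2.22 for Vim, 2.04 to 2.57 for Ngfr and 0.54 to 1.14 for Hgf. The ratios to Lrat ran over the leave-one-out fits from 0.27 to 0.65 for Lum, from 0.41 to 0.79 for Vim, from -0.73 to -0.55 for Dcn and from 0.73 to 1.12 for Ngfr; that of Reln, not called, ran from -0.18 to 0.30.

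The labels do not say whether the replicate numbers pair the mice, and correlations this weak cannot settle it. The correlation of the deviations of same-numbered mice ran from 0.00763 to 0.291 and passed 0.1 in 2 of 5 pairs. By these correlations, 1 AdVEGF mouse and 3 AdCMV mice were most like the mouse of their own number. With the replicate number as a block, 1933 genes were higher, 256 lower and 6 of the 8 genes called; the ratios to Lrat of Dcn (-0.66) and Ngfr (0.93) then had an exact sign-flip p of 0.0625, the smallest that 5 pairs can give. The cause of these differences between settings was not tested. Genes such as Gfap, Ntf3, Vldlr and Spint1, with few reads, are limited by depth.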
